A study of Mus musculus with 2 samples.

Results

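The ribosomal protein genes of the mouse were examined in nucleoplasmic RNA, from the soluble contents of the nucleus, of macrophages exposed to Lipid A. Members were taken by symbol. A symbol had to match Rpl or Rps followed by a number, or be Rplp0, Rplp1 or Rplp2, and the gene needed at least 1 transcript annotated as protein coding. Symbols with a k, which name kinases of Rps6, and pseudogene symbols were left out. The rule gave 85 of the 55536 genes in the tables, 52 with a large-subunit (60S) symbol and 33 with a small-subunit (40S) symbol. Of these, 76 encode proteins of the ordinary cytoplasmic ribosome, 46 of the 60S and 30 of the 40S subunit, and are called core genes here. A further 8 are paralogue copies of core genes, and Rps19bp1 encodes a protein that binds Rps19 and is no ribosomal protein itself. The members lie on 19 chromosomes, with 14 on chromosome 7, 8 on chromosome 17 and 4 on the X chromosome.

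The samples formed 1 group of 2 libraries. Both came from bone-marrow-derived macrophages, primary cells of C57BL/6J mice grown from marrow precursors, treated for 60 min with 100 ng/ml of Lipid A, the part of bacterial lipopolysaccharide that the receptor TLR4 binds. Total RNA of the fraction was depleted of ribosomal RNA, and the fragment range is given as 250 to 400. The starting amount of RNA was 1 µg in replicate 1 and 500 ng in replicate 2. The labels give both libraries the same donor label, so their spread may be smaller than that between animals. Age and sex are labelled as not collected. An untreated library, a cytoplasmic fraction and another time were not analysed here. All values are thus levels under stimulation, no gene can be called changed by Lipid A, and no test between conditions was possible. In such bulk libraries, fewer cells of a type and less RNA per cell cannot be told apart.

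A ribosome is built from ribosomal RNA and about one copy each of its proteins, which are made in the cytoplasm, imported into the nucleus and assembled in the nucleolus. Their genes are housekeeping genes of short, abundant mRNAs that are spliced in the nucleus and exported. Most vertebrate ribosomal protein mRNAs begin with a cytosine followed by a run of pyrimidines, the 5′ terminal oligopyrimidine (TOP) motif, through which growth signalling via mTOR controls their translation. Many of the genes carry small nucleolar RNAs (snoRNAs) in their introns, and the genome holds many processed pseudogenes of them. An RNA measured in the nucleoplasm may be a precursor, a mature mRNA before export, or RNA carried over from outside the nucleus.

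The start sites of 8 members are shown because the TOP motif is the sequence feature by which this family is best known. Each window runs from 30 bases before the annotated start to 15 bases from the start on, in RefSeq on GRCm38.p6, the mm10 assembly. It is written 5′ to 3′ on the gene's own strand, with coordinates 1-based. Capitals mark a pyrimidine tract, here at least 5 consecutive C or T read from the C nearest to the start, at most 5 bases from it. Pyrimidines before that C, as in the Rps27 window, are not counted and stay in lower case.
Rps6 (chr4:86857353-86857397, minus strand): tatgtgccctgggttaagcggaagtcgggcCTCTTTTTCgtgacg
Rpl15 (chr14:18270972-18271016, minus strand): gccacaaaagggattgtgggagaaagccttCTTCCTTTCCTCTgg
Rpl38 (chr11:114668550-114668594, plus strand): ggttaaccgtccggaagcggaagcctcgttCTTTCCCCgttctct
Rplp2 (chr7:141447621-141447665, plus strand): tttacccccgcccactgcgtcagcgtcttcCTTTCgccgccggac
Rps27 (chr3:90213634-90213678, minus strand): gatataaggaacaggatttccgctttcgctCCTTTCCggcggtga
Rps27rt (chr9:114982725-114982769, minus strand): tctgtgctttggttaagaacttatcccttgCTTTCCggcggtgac
Rpl10 (chrX:74270786-74270830, plus strand): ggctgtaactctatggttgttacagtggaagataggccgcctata
Rpl10l (chr12:66284387-66284431, minus strand): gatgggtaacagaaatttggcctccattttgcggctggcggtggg
In the first 6 windows the annotated start base was a C and opened the counted tract. The windows of Rpl10, among the highest members in the gene table, and of its copy Rpl10l, which had no counts there, held none.

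Promoter windows of 300 bases were found in RefSeq for 65 of the 85 members. A tract at the annotated start base itself was present in 14 of the 65 (21.5%), against 448 of 16522 protein-coding genes (2.71%). None of 69 mitochondrial ribosomal protein genes had one there, nor did most translation factor genes, with 2 of 26. Within 5 bases of the start, 30 of the 65 members (46.2%) had a tract, against 21.8% of protein-coding genes. The letters CTTTC, looked for on the gene's strand from 5 bases before to 10 after the start and able to overlap the tract, were in 11 of the 65 (16.9%), against 1.87% of protein-coding genes. CCGGAAG, a sequence that transcription factors of the ETS family bind, was looked for on both strands of the 300 bases. It was in 25 of the 65 members (38.5%), in 37.7% of the mitochondrial ribosomal protein genes and in 13.4% of protein-coding genes. Annotated starts can lie some bases from the start used in these cells, so a window without a tract says only that these letters are absent there. Levels were similar with and without a tract. The 27 core genes with a tract had median TPM of 36.1 in replicate 1 and 26.8 in replicate 2, and the 29 core genes without one had 40.4 and 27.0. TPM is the share of a library that a transcript takes, after division by its effective length.

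The cell label was checked with marker genes. Macrophage markers were high, with Lyz2, the lysozyme gene, at a TPM of 1939 in both libraries. Each of the 8 macrophage markers reached 10 TPM in both libraries. The 3 T cell markers had 0 counts, and the 3 markers each of B cells, erythroid cells, neutrophils and fibroblasts summed to between 1 and 24 expected counts per library. The gene tables held 21115765 expected counts on annotated genes in replicate 1 and 15607391 in replicate 2, so a count of 0 allows up to 0.142 and 0.192 CPM, counts scaled to library size, which covers counting error only. Mitochondrial genome transcripts, made outside the nucleus, took 5.10% and 6.17% of TPM in replicates 1 and 2, and 4.05% and 5.74% of counts. The nuclear RNA Malat1 took 2.16% and 1.73% of TPM, and 10.4% and 10.1% of counts. Which of them was larger thus depended on the unit. How much of the ribosomal protein RNA came from outside the nucleus was not tested.

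Ribosomal protein genes stood in a narrow band of moderate levels. The members' median of log2(TPM + 1) was 5.16 in replicate 1 and 4.72 in replicate 2, 4.94 ± 0.31 on average (SD, n = 2), and that of the 76 core genes was 5.04 ± 0.33. In TPM the core median was 37.6 in replicate 1 and 26.9 in replicate 2. All 76 core genes reached 1 TPM in both libraries. The level of 10 TPM was reached in both libraries by 71 of the 85 members (83.5%), all of them core genes, against 14.4% of the 22015 protein-coding genes of the nuclear genome. At the upper end, 12 members reached 50 TPM in both libraries and none reached 100 in both. Core genes spanned 9.43 to 101 TPM in replicate 1, a ratio of 10.7, and 5.82 to 108 TPM in replicate 2, a ratio of 18.5. Within 2-fold of the core median lay 60 of the 76 in replicate 1 and 58 in replicate 2. Core genes ranked much alike in both libraries, with a Spearman coefficient of 0.893 across the 76 genes. Genes are not independent replicates, and both libraries share gene lengths, annotation and donor label.

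**Figure D1:**
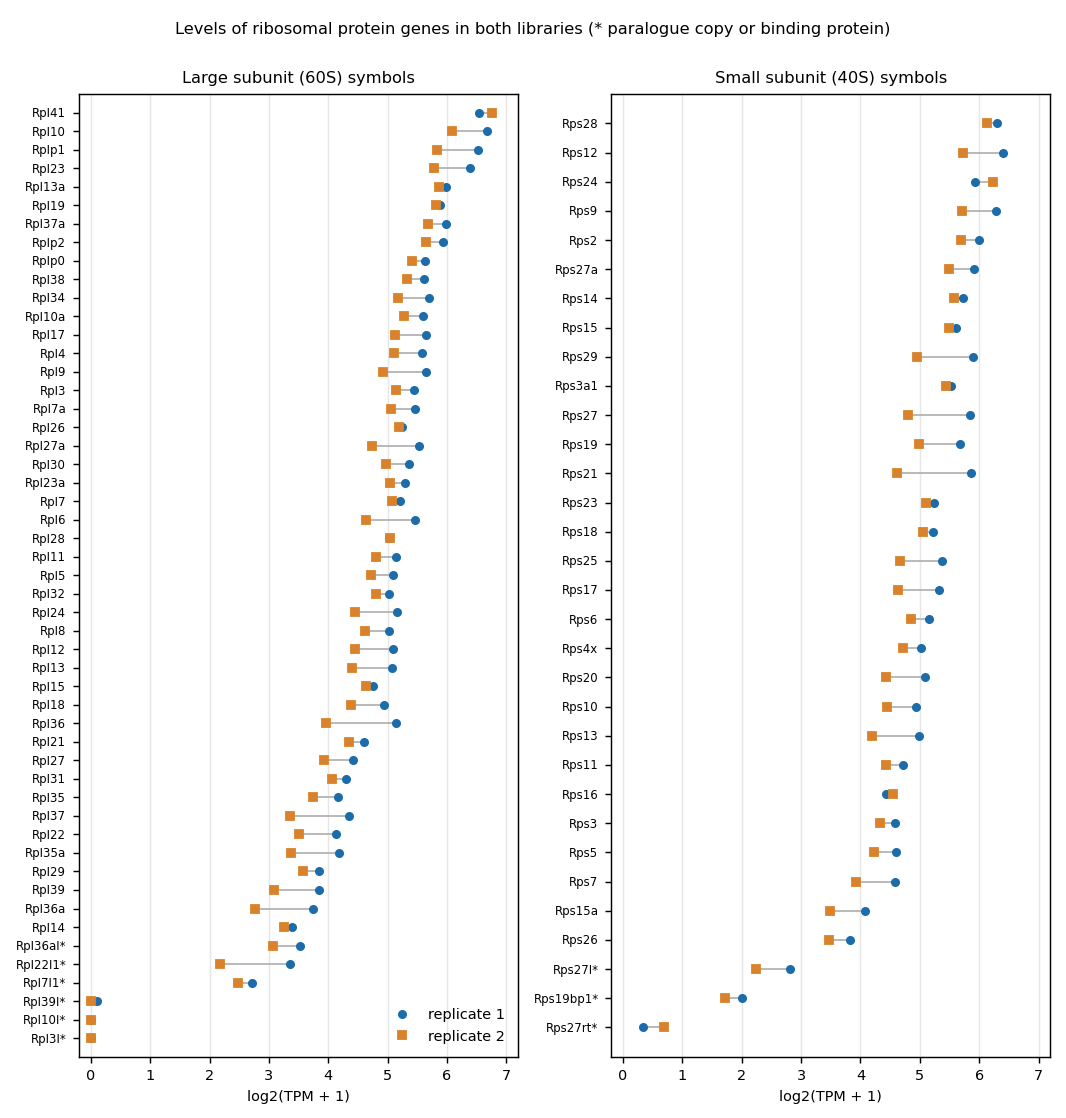
Level of the members as log2(TPM + 1) in replicate 1 (circles) and replicate 2 (squares), ordered by mean TPM within 60S symbols (left) and 40S symbols (right), with a grey line joining both libraries and an asterisk on paralogue copies and Rps19bp1. Core genes fill a band between 5.82 and 108 TPM, and the marked genes lie at its lower edge or near 0.

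All 85 members together held 0.318% and 0.239% of TPM in replicates 1 and 2, a mean of 0.278 ± 0.0552% (SD, n = 2). As a share of expected counts they took 0.194% and 0.184%. Within the TPM of protein-coding genes alone the share was 1.25% in replicate 1 and 1.27% in replicate 2. Protein-coding genes as a whole held 25.4% of TPM in replicate 1 and 18.8% in replicate 2, and 71 of the 76 core genes had the lower TPM in replicate 2. In rank, the median core gene stood at 1312 in replicate 1 and 1341.5 in replicate 2 among the 22015 protein-coding genes. In the gene table, the best placed member ranked 438, Rpl10 in replicate 1, and 283, Rpl41 in replicate 2. The highest of all protein-coding genes reached 4468 TPM in replicate 1 and 3008 TPM in replicate 2, far above any ribosomal protein gene.

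Among 60S genes, Rpl41 was highest in mean TPM. It encodes a very small peptide of the large subunit and had 92.4 TPM in replicate 1 and 108 in replicate 2, one of the few members higher in replicate 2. In mean CPM, without length correction, it had 33.9, below Rpl3 at 62.2 and Rpl10 at 62.1. Rpl10, whose product joins the 60S subunit late and sits near the catalytic centre, had 101 TPM in replicate 1 and 67.1 in replicate 2. Rpl23 followed with 83.0 and 54.1 TPM, Rpl13a with 62.3 and 57.2, and Rpl19 with 58.3 and 55.6. These genes all stood above the core median in both libraries. The place of Rpl10 rests on the gene table. In a second transcript table deposited for each library it had 22.1 TPM in replicate 1 and 19.2 in replicate 2, against 34.1 and 37.5 for Rpl23. The human counterpart of Rpl13a leaves the ribosome after interferon-gamma and takes part in silencing of inflammatory mRNAs. Its transcripts overlap Gm45713 and Mir5121 on the same strand, and those of Rpl19 overlap Gm11629 and Gm27597, so reads there may be shared.

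The 3 genes of the ribosomal stalk, which recruits translation factors with GTPase activity to the ribosome, were all above the core median. Rplp1 had 90.8 TPM in replicate 1 and 56.0 in replicate 2, Rplp2 had 60.5 and 49.2, and Rplp0, which anchors the stalk to ribosomal RNA, had 48.8 and 41.8. The stalk holds several copies of Rplp1 and Rplp2 for each Rplp0. The order of the 3 genes in TPM was the same in both libraries. In mean CPM, without length correction, Rplp0 was instead the highest at 55.7, against 27.2 for Rplp1 and 19.1 for Rplp2. Whether RNA levels follow the number of protein copies was not tested. The credibility intervals of TPM deposited with the gene tables overlapped in replicate 2 for Rplp1 (48.0 to 58.9 TPM) and Rplp2 (41.5 to 53.4 TPM). That of Rplp2 also overlapped the interval of Rplp0 there (36.5 to 43.4 TPM).

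Rpl5 and Rpl11 encode the proteins that bind 5S ribosomal RNA and, when ribosome assembly fails, bind Mdm2 and stabilise p53. Their levels were close to each other and to the middle of the family. Rpl5 had 33.0 TPM in replicate 1 and 25.5 in replicate 2, and Rpl11 had 34.1 and 27.0, a difference within the deposited intervals of each library. The lowest core gene of the 60S in replicate 1 was Rpl14, at 9.43 TPM, with 8.56 TPM in replicate 2. Rpl36a was lowest in replicate 2, at 5.82 TPM, with 12.5 TPM in replicate 1.

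The 40S genes had a similar upper edge. Rps28, whose product lies near the mRNA exit channel, had 77.8 TPM in replicate 1 and 68.8 in replicate 2. Rps12 had 83.6 and 51.7 TPM, Rps9 77.0 and 51.6, Rps2 62.6 and 50.7, and Rps27a, which encodes ubiquitin fused to a ribosomal protein, 59.2 and 44.2. Rps24, one of the genes mutated in human Diamond-Blackfan anaemia, was the exception in direction among these 6, with 59.9 TPM in replicate 1 and 74.5 in replicate 2. The place of Rps12 rests on the gene table, since in the second transcript table it had 7.86 and 8.36 TPM, against 28.7 and 28.9 for Rps9. Rps28 overlaps Kank3, Rps2 overlaps Snhg9 and Rps27a overlaps Clhc1 on the opposite strand. The strand setting of the quantification is not given, so their reads may be shared. Rps6, the main 40S target of S6 kinases, was in the middle of the family at 34.5 TPM in replicate 1 and 27.8 in replicate 2.

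The subunits did not differ beyond the spread between libraries. The 60S median of log2(TPM + 1) minus that of the 40S was -0.12 in replicate 1 and 0.10 in replicate 2, -0.01 ± 0.16 on average (SD, n = 2), with 46 and 30 core genes. The sign of this difference also turned with the quantification, at 0.14 in CPM and at 0.11 in a second transcript table, which was deposited for each library and made straight from the sequence files.

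Rpl3l, Rpl10l, Rpl39l, Rpl7l1 and Rps27l were low beside their parents, and Rpl36al was not. For Rpl22l1 the distance to its parent is not settled, and Rps27rt cannot be separated from its parent by the coding sequence. Rpl3l, the copy used in heart and skeletal muscle, and Rpl10l, used in testis, had 0 counts in both gene tables, while Rpl3 had 1248 and 1018 and Rpl10 had 1395 and 906 expected counts. Rpl39l, another testis copy, had 1 count in replicate 1 and 0 in replicate 2, against 127 and 67 for Rpl39. Rpl3l, Rpl10l and Rpl39l were the 3 lowest members. In the second transcript table Rpl3l had 3 and 5 counts in replicates 1 and 2.

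The other copies were detected. Rpl7l1, a nucleolar assembly protein, had 5.55 TPM in replicate 1 and 4.60 in replicate 2, and Rpl7 had 35.9 and 32.9, a parent over copy ratio of 6.46 and 7.15. Rps27l, a p53 target in human cells, had 6.01 and 3.73 TPM, and Rps27 had 56.7 and 26.8, a ratio of 9.43 and 7.17. Rpl22l1 came nearer to its parent, at 9.23 and 3.5 TPM against 16.5 and 10.4 for Rpl22, a ratio of 1.78 and 2.98. Its deposited interval was wide, from 8.11 to 46.2 TPM in replicate 1 and from 3.32 to 59.2 in replicate 2, so its distance to Rpl22 is not settled. Rpl36al and Rpl36a were alike, at 10.5 and 7.41 TPM for the copy and 12.5 and 5.82 for the parent. This order turned between the libraries in TPM. In counts the copy was above the parent in both, at 98 and 59.8 against 91.1 and 38.7. In TPM of the second transcript table it was below in both, at 3.59 and 4.01 against 5.50 and 4.38.

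How well reads can separate a copy from its parent depends on their sequences. The aligned coding sequences shared 73.4% of bases for Rpl3l and Rpl3, 84.7% for Rpl10l and Rpl10, 85.0% for Rpl39l and Rpl39, and 87.7% for Rpl36al and Rpl36a. The longest identical runs in these pairs were between 22 and 38 bases. The retrogene Rps27rt is the exception, with a coding sequence of 252 bases identical to that of Rps27 throughout. It was given 1.07 and 2.26 expected counts, against 229 and 113 for Rps27. Reads from the coding part cannot tell this pair apart, and both values are uncertain. The windows printed above show a tract at the start of both genes. Rps19bp1, the binding protein gene, had 3.02 TPM in replicate 1 and 2.28 in replicate 2, against 50 and 30.8 TPM for Rps19.

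Set against other genes of the translation system, ribosomal protein genes were high per length. Their median of log2(TPM + 1) minus that of 8622 protein-coding genes at 1 TPM or more in both libraries was 1.94 in replicate 1 and 1.85 in replicate 2, 1.90 ± 0.06 on average (SD, n = 2). This holds for TPM alone, since without the length correction, in CPM, the difference was -0.054. The members are short, with a median effective length of 533 bases in replicate 1 and 513 in replicate 2, against 2224 and 2236 for those protein-coding genes.

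Mitochondrial ribosomal protein genes, the family with the most similar role, were much lower. The members' median minus theirs was 3.39 in replicate 1 and 3.09 in replicate 2 on the log2 scale, 3.24 ± 0.21 on average (SD, n = 2), over 78 mitochondrial genes, and it remained positive in CPM at 2.61. Of these genes 3 reached a TPM of 10 in both libraries (3.85%). Mrpl24 led with 35.8 TPM in replicate 1 and 28.7 in replicate 2, followed by Mrpl52 with 30.1 and 13.4 and Mrpl39 with 18.2 and 12. These highest 3 were near or below the middle of the cytoplasmic family.

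Translation factors reached far higher single levels but were more uneven. The members' median minus that of 35 factor genes was 0.79 and 0.66 on the log2 scale, 0.72 ± 0.09 on average (SD, n = 2), and turned to -1.45 in CPM. Eef1a1, which delivers aminoacyl-tRNA to the ribosome, had 480 TPM in replicate 1 and 447 in replicate 2. The helicase gene Eif4a1 had 232 and 152, and Pabpc1, which binds the poly(A) tail, had 220 and 228. The mRNAs of Eef1a1 and Pabpc1 are TOP mRNAs too. The interquartile range of log2(TPM + 1) was 1.21 in replicate 1 and 1.22 in replicate 2 among the members, and 2.67 and 2.41 among the factors. It was 2.33 and 2.19 among all expressed protein-coding genes. Mitochondrial ribosomal protein genes had a range of 1.09 and 1.00, below that of the members, and the core genes alone had 0.79 and 0.96. A narrow range was thus not particular to the members.

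Genes that help to make ribosomes had a lower median TPM than the ribosomal protein genes. They are longer, with a median effective length of 1742 bases in replicate 1 and 1856 in replicate 2. In counts, 40 such genes together took 0.087% and 0.083% of the libraries, against 0.194% and 0.184% for the 85 members. These are sums over lists of unlike size, so they do not compare levels per gene. Medians of CPM were not compared for the lists that follow. The 40 ribosome biogenesis genes had a median of log2(TPM + 1) of 2.62 ± 0.31 (SD, n = 2), and 8 of them (20%) reached 10 TPM in both libraries. Sbds, which releases a factor from new 60S subunits, was highest, with 98.3 TPM in replicate 1 and 72.2 in replicate 2. Npm1 and Ncl, abundant nucleolar proteins, had 36.7 and 38.8 TPM and 32.1 and 26.9 TPM. None of 5 dedicated chaperones of ribosomal proteins reached 10 TPM, and the highest, Bccip, had 4.01 and 4.64 TPM. Another list held 14 genes, namely Larp1, genes of mTOR signalling, Eif4e kinase genes and Myc, and its median was 3.20 ± 0.23 (SD, n = 2). These 14 are longer still, at a median of 3032 and 3458 bases, and together took 0.075% and 0.068% of counts, again a sum over the list. Larp1, which binds the TOP motif, led with 37.1 TPM in replicate 1 and 26.1 in replicate 2, and was followed by Rheb, the activator of mTOR complex 1, with 24.3 and 16.9. Mknk1, a kinase of Eif4e, had 24.0 and 17.2 TPM.

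Some ribosomal proteins are encoded under symbols that the rule does not take. Fau, which encodes a 40S protein fused to a ubiquitin-like domain, had 77.6 TPM in replicate 1 and 85.2 in replicate 2. Rpsa had 36.7 and 29.3 TPM, and Rack1 had 34.6 and 22.9. These 3 genes lay inside the range of the core genes.

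**Figure D2:**
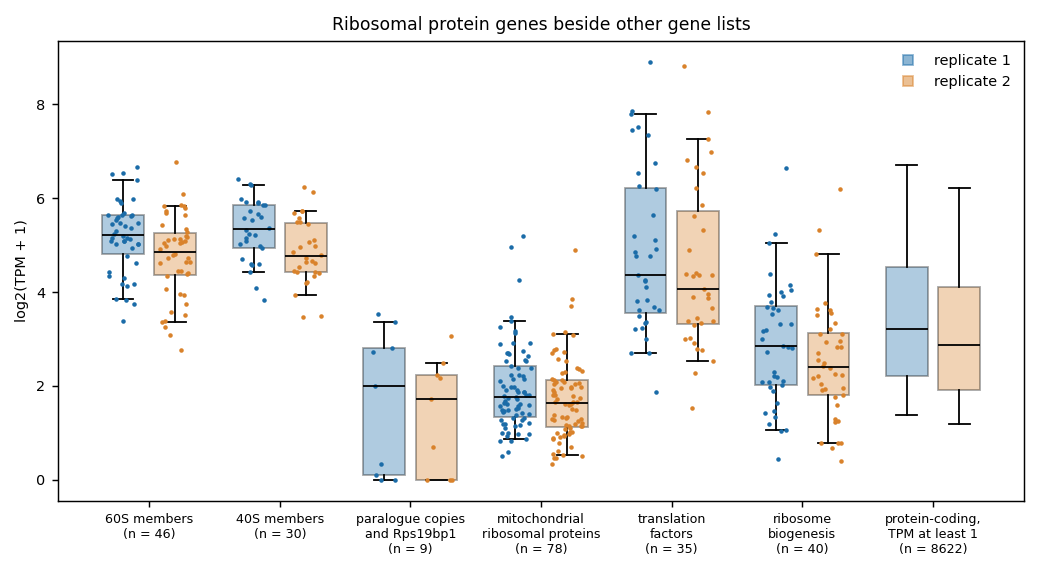
Levels as log2(TPM + 1) of 60S and 40S core genes, paralogue copies with Rps19bp1, 3 other gene lists and all protein-coding genes at 1 TPM or more in both libraries, each for replicate 1 (left box) and replicate 2 (right box). Boxes show the median and quartiles, whiskers the 5th and 95th percentile, and points single genes; both core boxes sit above the other boxes in median and are narrower than that of the translation factors.

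Transcript annotation gave a second view of the same genes. GENCODE M21 lists 499 transcripts of the members, of which 235 are labelled protein coding, 175 retained intron in 64 members, 65 processed transcript in 27 and 24 nonsense-mediated decay in 19. Transcripts labelled protein coding held 71.9% of the members' TPM in replicate 1 and 74.2% in replicate 2, 73.1 ± 1.64% on average (SD, n = 2). Those labelled retained intron held 19.8% and 18.2%. Over all protein-coding genes the protein-coding transcripts held 67.1% and 67.5% of TPM, 67.3 ± 0.290% on average (SD, n = 2). By counts the order turned, with 71.5 ± 1.32% of the members' expected counts and 78.9 ± 0.112% of those of all protein-coding genes in such transcripts (SD, n = 2 each). The labels belong to the annotation, and reads over introns were not measured directly.

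Members differed widely in this share. Of the 71 members that reached 10 TPM in both libraries, 22 averaged over 90% and 12 under 50%. The median share over these 71 was 78.3% in replicate 1 and 80.1% in replicate 2. Over the 3179 protein-coding genes at that level it was lower, at 67.7% and 68.4%. How many of those genes passed 90% or fell under 50% was not counted. Among the members, Rplp1, Rps15, Rps3a1, Rpl38, Rpl17, Rpl32, Rpl36 and Rpl29 stood at 100% in both libraries. Of these, Rplp1, Rps3a1 and Rpl36 have only 1 annotated transcript, so the annotation fixes their share at 100%. Rps15, Rpl17 and Rpl32 have 2 annotated transcripts each. The share of a gene was close in both libraries, with a Spearman coefficient of 0.961 across the 76 core genes, which again share annotation and donor label. Shares fixed by the annotation are included in that coefficient.

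The 4 lowest shares in the transcript table that goes with the gene table were those of Rps16, Rps20, Rpl5 and Rps23. Rps16 had 13.6% of its TPM in protein-coding transcripts in replicate 1 and 5.15% in replicate 2, with 86.4% and 94.8% in retained-intron transcripts. Rps20, of the head of the 40S subunit, had 11.4% and 12.7%, and Rpl5 had 15.4% and 14.0%. Rps23, whose product lies at the decoding centre, had 19.6% and 11.7%, with 36.1% and 45.4% in a processed transcript. These shares depend on the table. In the second transcript table they were 31.1% and 19.4% for Rps16, 14.2% and 14.9% for Rps20, 25.2% and 29.1% for Rpl5, and 17.7% and 10.7% for Rps23. Rpl12 was lowest there, at 2.36% and 0%. In the first of the tables, retained-intron transcripts held over 50% of TPM in both libraries in 5 of the 71 genes, namely Rps16, Rps20, Rpl5, Rpl27a and Rps26. This count was not made over other genes. The median retained-intron share was 15.2% and 11.3% over the 71 members in replicates 1 and 2. It was higher, at 20.0% and 18.8%, over the 3179 protein-coding genes at 10 TPM in both libraries.

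Transcript length bears on these shares. The protein-coding transcript of Rps20 is listed with 3706 bases, and its retained-intron transcripts with 582 and 512 bases. The long transcript held 318 expected counts in replicate 1 and 211 in replicate 2, more than the 204 and 106 counts of the 582-base transcript. In TPM it held 3.73 and 2.61, and the 582-base transcript 22.2 and 12.5. For Rps16 the order was the same in counts and TPM of this table. Its retained-intron transcript of 518 bases held 116 and 123 counts, and its protein-coding transcript of 1109 bases held 61.6 and 23.9. In the second table the retained-intron transcript held 92.0 and 112 counts and the protein-coding one 145 and 103, so the count order turned there in replicate 1.

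**Figure D3:**
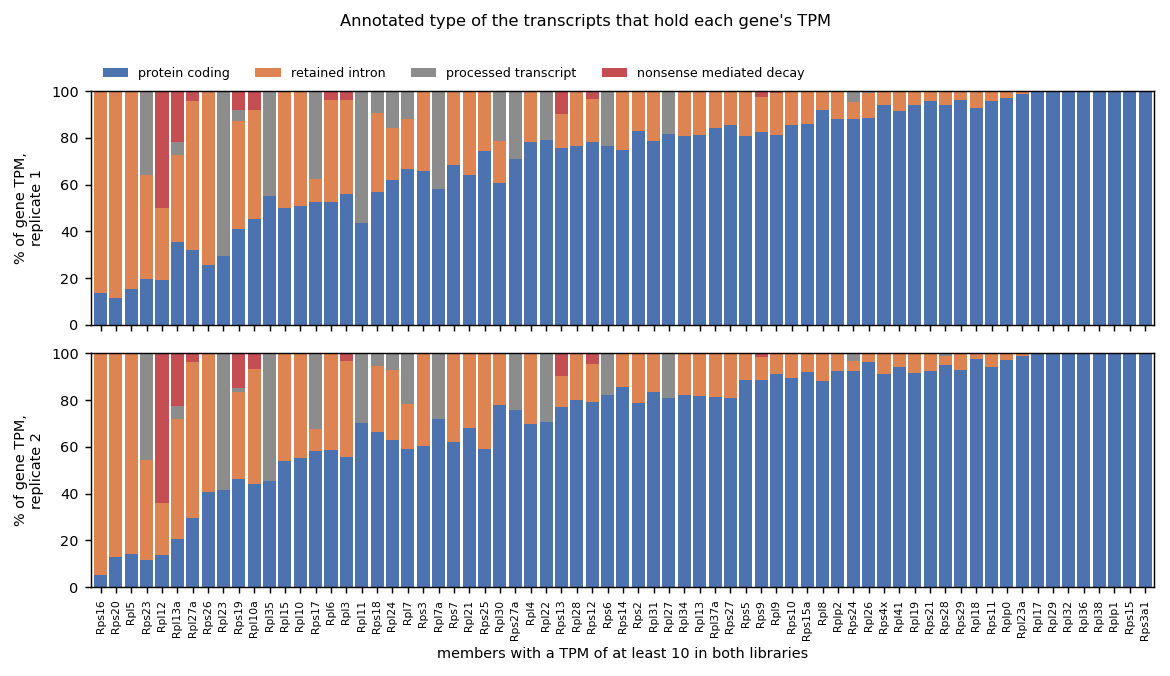
Share of each gene's TPM in transcripts labelled protein coding, retained intron, processed transcript and nonsense-mediated decay, for members that reached 10 TPM in both libraries, with replicate 1 above and replicate 2 below, ordered by mean protein-coding share. Genes from Rps16 at 13.6% and 5.15% to Rplp1, fixed at 100% by its 1 annotated transcript, keep similar shares in both libraries.

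The second transcript table was made straight from the sequence files, and the gene table from alignments to transcripts. For most members the count shares in both were close. The log2 ratio of a member's share of protein-coding counts, second table over gene table, had a median of -0.07 over the same 71 members. The ranking of the core genes by counts had Spearman coefficients of 0.897 in replicate 1 and 0.913 in replicate 2 between the tables, across 76 genes. By TPM the coefficients were 0.816 and 0.796.

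Beyond 2-fold in both libraries were 4 members. The same count was not made over all genes, so no background stands beside it. Rpl36 was higher in the second table, with 577 and 352 estimated counts in replicates 1 and 2, against 150 and 57.3 in the gene table, a log2 share ratio of 1.54 and 1.90. Rpl27 had 637 and 445 against 205 and 131 counts, a ratio of 1.24 and 1.05. Rps12 was lower, with 379 and 298 against 796 and 475 counts, a ratio of -1.46 and -1.38. Rpl12, a protein at the base of the stalk, had 272 and 212 against 564 and 341 counts, a ratio of -1.44 and -1.39. Next in each direction were Rps27 at 0.43 and 0.69 and Rpl10 at -0.86 and -1.01. The gap between tables was in each of the 4 genes larger than their log2 ratio between replicates, which was 0.91 for Rpl36, 0.16 for Rpl27, 0.26 for Rps12 and 0.25 for Rpl12.

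Counts of pseudogene entries also differed between the tables. The annotation names 289 entries after members by a symbol with -ps, and 59 members have at least 1. Pseudogenes under other symbols were not counted, and the annotated type of the entries was not checked. The 289 entries held 2.61% of the summed counts of members and entries in the gene table of replicate 1 and 2.85% in replicate 2. In the second table they held 6.00% and 6.48%. The 24 entries named after Rps12 had 526 and 269 counts in the second table against 31.1 and 18.3 in the gene table. The 6 named after Rpl10 had 566 and 558 against 28.2 and 51.0. For Rps12 and Rpl10, the lower gene count and the higher pseudogene count were in the same table. For Rpl12 the 2 entries so named had 0 counts in both tables. Rpl36 differed again, since its entries were also higher in the second table, at 380 and 236 counts against 194 and 65.7. Most lay in Rpl36-ps2, whose 69.3 and 26.5 TPM in the gene table were above the 34.5 and 14.6 TPM of Rpl36. Whether such entries are transcribed or hold reads of the gene was not tested.

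**Figure D4:**
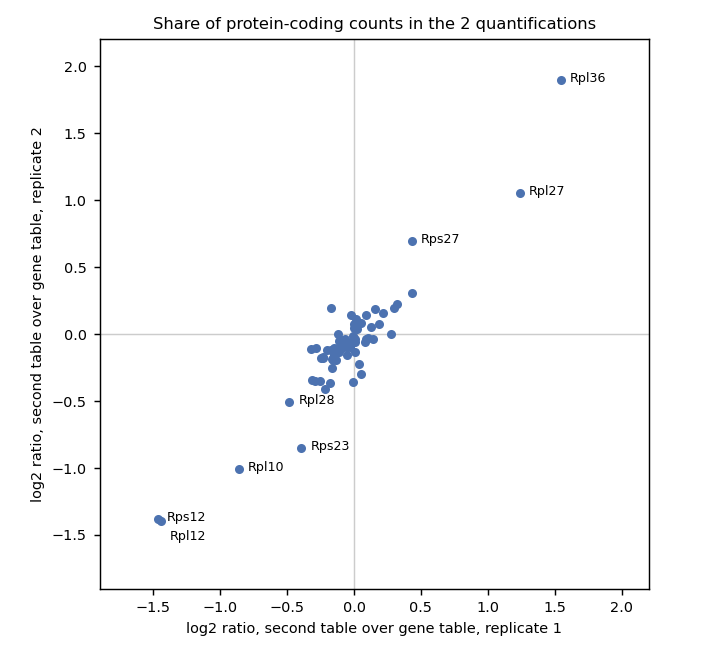
Log2 ratio of each member's share of protein-coding counts, second transcript table over gene table, in replicate 1 (x axis) and replicate 2 (y axis), for the 71 members that reached 10 TPM in both libraries. Most points sit near 0, Rpl36 and Rpl27 lie above 1 on both axes, and Rps12 and Rpl12 lie below -1 on both.

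Replicate 1 was compared with replicate 2 after TMM normalisation, a scaling that sets most genes level. Of 79 members with a mean count of at least 50, 0 differed beyond 2-fold, against 1.18% of 10088 genes. In the background, 0.694% of genes were higher in replicate 1 and 0.486% higher in replicate 2. The members' log2 ratios, replicate 1 over replicate 2, ran from -0.54 to 0.92 with a median of 0.07 and a median size of 0.19, close to 0.18 for all genes. Above 0 lay 48 of the 79 (60.8%), against 52% of all genes. After this scaling the members were thus about level, although 71 of 76 core genes had a lower TPM in replicate 2. With 2 libraries of 1 condition these ratios describe the libraries and were not tested.

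At a mean count of at least 200, high ratios included 0.42 for Rpl24 and 0.40 for Rps25. Rpl24 had 336 counts in replicate 1 and 180 in replicate 2, and Rps25 had 408 and 221. The lowest ratios were -0.54 for Rpl41, -0.50 for Rpl28 and -0.45 for Rps24. Rpl41 had 594 counts in replicate 1 and 618 in replicate 2, Rpl28 had 302 and 307, and Rps24 had 1013 and 995. Counts of these 3 genes were nearly equal although replicate 2 was shallower. The largest ratio at a lower mean count was that of Rps21, at 0.92 with 267 and 101 counts, and the rule for named genes did not choose it. Very short genes varied more. The 12 members with an effective length under 300 bases had a median size of the log2 ratio of 0.44, and the other 67 had 0.16. Among 19 protein-coding genes of that length, a set that includes members, it was 0.33. That value is therefore no separate background. Whether length accounts for these ratios was not tested.

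**Figure D5:**
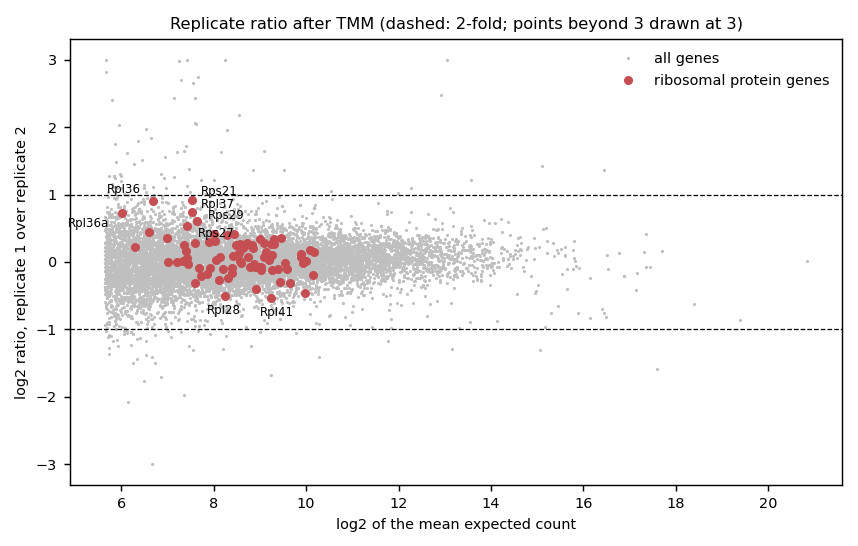
Log2 ratio of expected counts after TMM, replicate 1 over replicate 2, against the log2 of the mean count, for 10088 genes (grey) and 79 members (red), with dashed lines at 2-fold and members beyond 0.5 named. All members lie between -0.54 and 0.92, inside the dashed lines.

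snoRNAs in the introns of members were scarcely counted. The annotation places 55 snoRNA and small Cajal body RNA genes inside 29 members, with lengths from 65 to 148 bases, all shorter than the fragment range of 250 to 400. Of these, 45 had 0 counts in both libraries and 6 reached 3 counts in at least 1. They summed to 370 counts in replicate 1 and 88.3 in replicate 2. Most were in Rps3, whose introns hold Snord15b, with 156 and 27.8 counts, and Snord15a, with 154 and 56. Snora52 in Rplp2 had 8.81 and 0 counts, and Gm22270 in Rpl5 had 5 and 0. These 3 hosts had the larger snoRNA count in replicate 1, and Rps3, Rplp2 and Rpl5 had log2 ratios of -0.11, 0.25 and -0.08 themselves. snoRNA levels are thus set by few reads, and reads of a host intron and of its snoRNA cannot be told apart here.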

How the data were processed

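Each of the 2 libraries had 1 gene table and 2 transcript tables, all on mm10 with GENCODE M21, per the file headers and the text deposited beside them. No quantification tool, version or strand setting is named in those files or labels. The expected counts (estimated counts that need not be whole) and the TPM values were made and deposited by the authors, as were the intervals of gene TPM. TPM was read as deposited, and the second transcript table was summed per gene here. Rows that name no mouse gene, 0.662% of counts in replicate 1 and 0.232% in replicate 2, were left out.

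The members and the other gene lists were chosen with earlier results of these data known. Levels are medians of log2(TPM + 1). Counts were rounded for TMM factors in edgeR 4.0.16 under R 4.3.3, and 0.5 was added before ratios of genes with a mean count of at least 50. The steps were tested on simulated data. DESeq2 1.42.0 size factors were an alternative. Coding sequences were aligned with Biopython 1.88, and other steps used pandas 2.3.3 and numpy 2.4.6. Promoter windows came from RefSeq. Named genes are the 6 highest of each subunit, the 3 lowest, copies with parents, stalk, 5S and Rps6 genes, the extremes of each comparison, and the 3 highest of each other list. Others, such as Rpl14, Rps21, Rpl36-ps2 and members listed by a shared value, were chosen after their values were seen. Some genes are not reported here or drawn by name. No test was run, since there is 1 group. P-values would measure the spread of 2 libraries of 1 donor label, and intervals cover counting error only.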

Additional observations from a re-analysis of the deposited data

How the results depend on the processing

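The members' median log2(TPM + 1) of 4.94 was 3.94 in the second transcript table, 7.10 after rescaling over protein-coding genes and 4.39 in CPM, and from 4.72 to 5.16 with 1 library left out. The difference from expressed protein-coding genes, 1.90, was 2.02 with a pseudocount of 0.1, 1.44 in the second table, 2.00 rescaled, 1.99 without paralogue copies and Rps19bp1, and -0.054 in CPM, where it turned (1.85 to 1.94 with 1 library left out). CPM does not divide by length, which is how it differs by construction. The difference from mitochondrial ribosomal protein genes, 3.24, was 3.66, 2.61 and 3.60 under the first 3 of these settings and 2.61 in CPM (3.09 to 3.39). The difference from translation factors, 0.72, was 0.32 in the second table, 0.82 without copies and -1.45 in CPM, where it turned (0.66 to 0.79). The 60S minus 40S difference turned to 0.11 in the second table, 0.14 in CPM and 0.10 without replicate 1 (-0.12 to 0.10). The cause was not tested. The share of TPM, 0.278%, was 0.189% of counts, 0.126% of TPM and 0.167% of counts in the second table, and 1.26% of protein-coding TPM (0.239 to 0.318%). The protein-coding share, 73.1%, was 67.7% in the second table and 79.2% as a median over members with a TPM of at least 10 (71.9 to 74.2%). The median replicate ratio, 0.07, was 0.07 with DESeq2 size factors, with a minimum mean count of 10 and with no filter, and 0.11 in the second table. The number of members beyond 2-fold, 0, was 2 with no filter and 0 under the other 3 settings. With the second table and CPM tried for each of 81 single members, the level moved by more than its SD in 123 comparisons and did not in 39. No paired analysis was possible because there is 1 group. Values of Rpl39l, Rps27rt and most snoRNAs rest on under 3 counts.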

Other observations

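Deposited intervals of TPM give the precision of single genes within a library. Over the 76 core genes the upper bound was a median of 1.26 times the lower bound in replicate 1 and 1.32 times in replicate 2. The intervals of both libraries overlapped for 33 of the 76. Core genes held between 91.1 and 1395 expected counts in replicate 1 and between 38.7 and 1018 in replicate 2, and 73 of the 76 had at least 100 in both.

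A gene on the opposite strand overlaps 24 members, and a gene on the same strand overlaps 10. Rps25 overlaps Trappc4 and Ccdc84, Rpl5 overlaps Fam69a, Rpl12 overlaps Lrsam1 and Rpl28 overlaps Ube2s, all on the opposite strand. Across the 76 core genes, mean TPM and mean effective length had a Spearman coefficient of -0.21, and mean CPM and effective length one of 0.556. Both quantities contain the effective length or the count, so these are descriptions of the scales.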
